A study of Mus musculus with 30 samples.

Results

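The comparison asks in which genes the transcriptional response to Gdf11 differed between wildtype and Nr6a1-/- cells as embryonic stem cells (ESCs) of the mouse line Bruce4 were driven towards neuromesodermal progenitors (NMPs). It used 12 of the 30 RNAseq libraries of the series, 3 replicates in each of 4 groups, chosen by their labels and not by any measured value. All cells were taken off their feeder layer, placed in N2B27 medium and treated with FGF2, with the Wnt pathway agonist CHIR added from day 2. At day 3 the cultures either stayed in FGF2 and CHIR for another 24 h (d4) or received Gdf11 as well for those 24 h (d4G). The Nr6a1-/- cells were 1 CRISPR/Cas9 clone with deletions in exon 4 of both alleles, so that genotype and clone cannot be told apart. The labels do not say whether replicates were separate cultures, and p-values therefore measure the spread between these libraries only. For each gene the response is the log2 ratio of d4G over d4, and the difference in response is the Nr6a1-/- response minus the wildtype response.

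Gdf11 is a secreted ligand of the TGF-β family that binds activin type II receptors and type I receptors such as Tgfbr1, which phosphorylate Smad2 and Smad3, and these enter the nucleus with Smad4. It is known for ending trunk formation in the tail end of the embryo, where posterior Hox genes are then switched on. Nr6a1 is an orphan nuclear receptor that binds DNA at direct repeats of the AGGTCA motif and is expressed while the trunk is laid down. NMPs are bipotent cells that supply both the spinal cord and the paraxial mesoderm, and they carry T, Sox2, Cdx genes and Nkx1-2.

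Library totals ran from 1570714 to 3688197 counts, so that 3 counts, the most that a count of 0 allows, stand for 0.813 to 1.91 CPM, the counts scaled to a fixed library total. Such limits cover counting error only. Nr6a1 counts could not check the genotype labels, since the libraries read the 3′ end of the RNA and the deletions lie in an internal exon. With Gdf11, Nr6a1 fell in both genotypes, from 96.8, 99.5 and 96.7 to 17.2, 19.1 and 17.7 CPM in wildtype cells and from 189, 224.5 and 255 to 18.8, 29.3 and 37.8 CPM in Nr6a1-/- cells, and the difference in response was not called (log2 -0.52, 95% interval -0.95 to -0.08, edgeR FDR = 0.231). Among the 12 libraries, 2 stood apart. In d4 Nr6a1-/- replicate 1, the genes of ribosomal proteins took 16.9% of counts, against 13% and 12.3% in replicates 2 and 3, and its chi-square per gene against them was 5.64 and 6.68, where all other pairs of replicates lay between 1.92 and 3.8. In d4 wildtype replicate 2, the 20 genes of a pluripotency and epiblast list summed to 1143 CPM, against 330.5 and 377 CPM in the other d4 wildtype libraries and 320.1 to 612 CPM in the other groups. The marker lists of other cell types were also summed. The 16 endoderm genes summed to 391 to 454.5 CPM in d4 wildtype, 326 to 365 in d4G wildtype, 128 to 149 in d4 Nr6a1-/- and 138 to 153 CPM in d4G Nr6a1-/- libraries. The 14 fibroblast genes, which would mark feeder cells, summed to 71.6 to 76.9, 90.3 to 99.1, 63.9 to 66.9 and 112.5 to 129 CPM in the same order. These ranges did not overlap between groups. The 20 neural progenitor genes summed to 381 to 578.5, 307 to 429, 822 to 951 and 293 to 455.5 CPM. The part of such cells in the results was not tested. Fewer cells of a type and less RNA per cell cannot be told apart in these libraries. Each library was given an index tag before libraries were pooled and amplified, and libraries with the same tag cannot be told apart within a pool. By the labels, 4 of the 6 same-numbered pairs of d4 and d4G libraries had the same tag, namely the 3 wildtype pairs and Nr6a1-/- replicate 1, whereas d4 Nr6a1-/- replicates 2 and 3 had tags that d4G libraries did not carry and that d3 Nr6a1-/- replicates 2 and 3 did. Which libraries shared a pool is not given in the sources used here, so that pool and Gdf11 treatment cannot be told apart, least of all in wildtype cells.

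Gdf11 changed 3498 of the 12149 genes tested in wildtype cells (28.8%, 1741 higher and 1757 lower) and 2191 in Nr6a1-/- cells (18%, 1026 higher and 1165 lower), each at a false discovery rate (FDR) below 0.05 by the quasi-likelihood test of edgeR, with p-values adjusted after Benjamini-Hochberg over all genes tested, as for all FDR values here unless another tool is named. With counts thinned to the smallest library, 2654 genes were called for the wildtype and 1803 for the Nr6a1-/- response. Library totals and the spread between replicates differed between groups, so that these counts do not compare the strength of the responses. The difference in response was itself called in 323 genes (2.66%), positive in 142 (1.17%) and negative in 181 (1.49%). These 323 genes were put into classes by which response was called. In 126 the wildtype response alone was called (lost, 69 higher and 57 lower with Gdf11 in wildtype cells). In 95 the Nr6a1-/- response alone was called (gained, 36 higher and 59 lower in Nr6a1-/- cells). In 51 both were called in the same direction and the Nr6a1-/- response was the larger (amplified, 32 higher and 19 lower), and in 15 it was the smaller (blunted, 10 higher and 5 lower). In 33 the responses were called in opposite directions (reversed, 22 higher and 11 lower in wildtype cells), and in 3 neither was called. Missing the threshold does not show that a response was absent. The Nr6a1-/- response was smaller than 0.5 on the log2 scale in 114 of the 126 lost genes, with a median size of 0.148 against 0.79 in wildtype cells, and the wildtype response was smaller than 0.5 in 79 of the 95 gained genes. These sizes describe the classes only. They follow in part from the rule that drew them, since a response that is not called tends to be small.

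**Figure D1:**
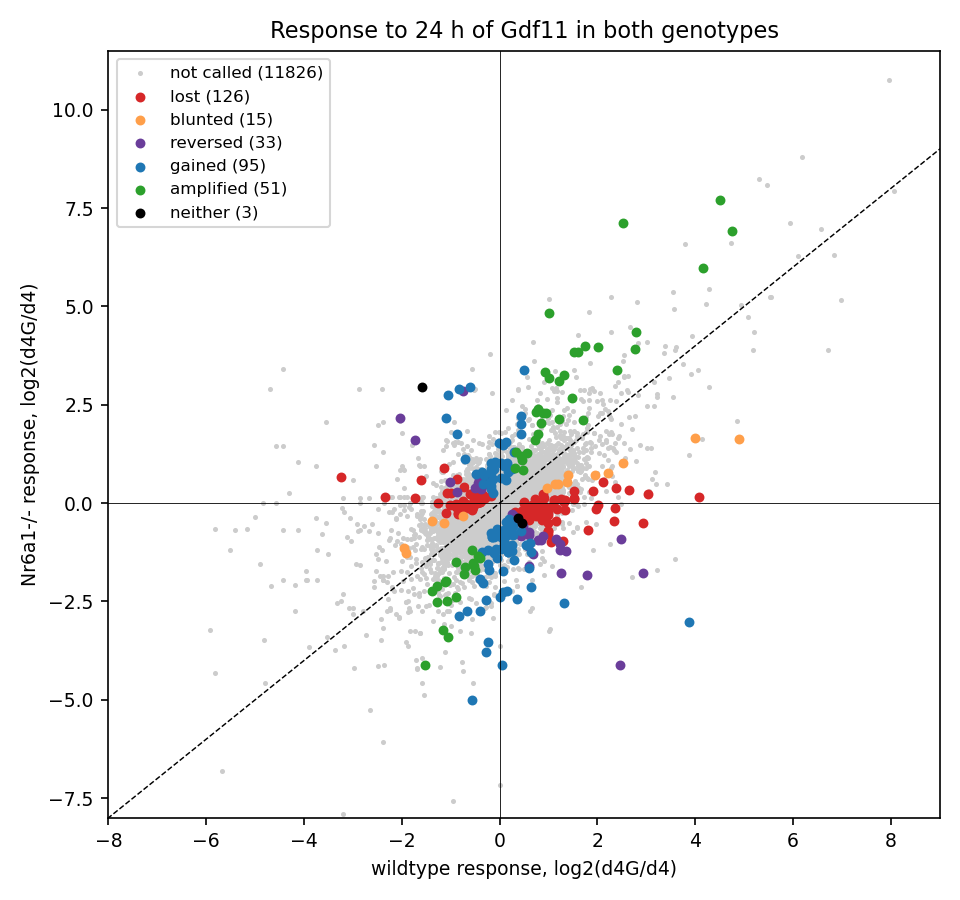
Response to 24 h of Gdf11 as log2(d4G/d4), wildtype on the horizontal axis and Nr6a1-/- on the vertical axis, with 1 point for each of the 12149 genes tested and colours for the classes of the 323 genes whose difference in response was called. Equal responses lie on the dashed line. Lost genes lie along the horizontal axis, gained genes along the vertical axis and reversed genes where the 2 axes give opposite signs.

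The classes were counted again without the 2 libraries that stood apart. Without d4 wildtype replicate 2, 279 genes were called, 245 of them among the 323, with 91 lost, 12 blunted, 33 reversed, 101 gained and 40 amplified. Without d4 Nr6a1-/- replicate 1, 830 genes were called, 315 of them among the 323, with 489 lost, 44 blunted, 56 reversed, 155 gained and 55 amplified. Leaving out both gave 737 genes, 290 of them among the 323, with 428 lost. Part of the added calls were ribosomal protein genes, of which 86 were listed after this library was seen and whose reads may be shared with their many pseudogenes. With Gdf11, 80 of the 86 fell in wildtype cells and 40 in Nr6a1-/- cells, with median responses of -0.605 and -0.267. Over all 12149 genes tested, 1757 fell in wildtype and 1165 in Nr6a1-/- cells. The difference in response was called in 2 of the 86 with all libraries and in 73 without d4 Nr6a1-/- replicate 1. Without that library the median Nr6a1-/- response of the 86 was -0.0449 and 9 fell, against 797 of all 12149 genes tested. This d4 Nr6a1-/- library shared its index tag with a d4G library, as the d4 wildtype libraries did, and its fellow replicates did not. The ribosomal protein share was 16 to 16.9% in these 4 libraries, 13 and 12.3% in the fellow replicates, 11.6 to 12.5% in the 6 d4G libraries and 13.8 to 15.5% in the libraries of earlier stages. Whether this library or its fellow replicates represent the group, and the part of the pool, was not tested. Leaving out 1 library at a time, 147 of the 323 genes were called in all 12 fits, among them 30 of the 33 reversed, 32 of the 51 amplified, 42 of the 95 gained, 7 of the 15 blunted and 36 of the 126 lost genes. These counts follow the called difference and do not show that a gene kept its class. The classes also differ by their rule in the size of the difference, with a median of 1.72 in reversed and 0.84 in lost genes.

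**Figure D2:**
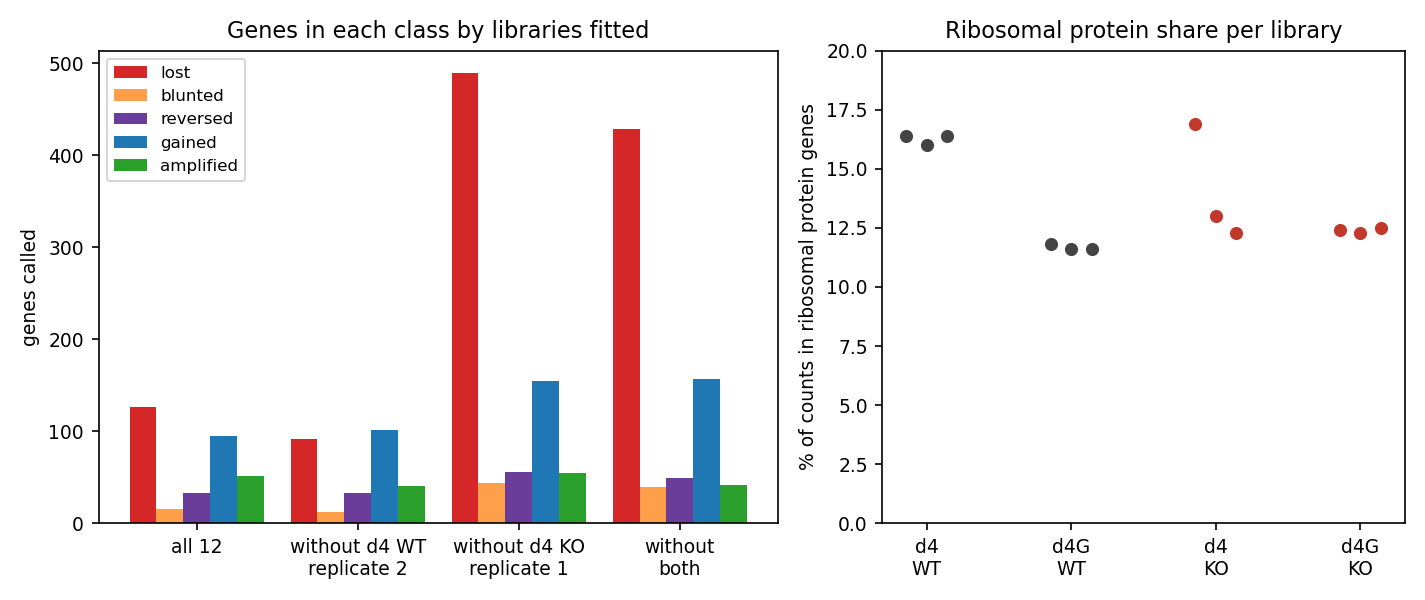
Left, number of genes in each class of response with all 12 libraries and without 1 or both of the libraries that stood apart. The lost class holds 126 genes with all libraries and 489 without d4 Nr6a1-/- replicate 1. Right, share of each library's counts in 86 ribosomal protein genes, with 1 point a library (WT, wildtype, KO, Nr6a1-/-). The first d4 Nr6a1-/- library lies at 16.9%, beside the d4 wildtype libraries at 16 to 16.4%, while its fellow replicates lie at 13 and 12.3%.

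To see at which treatment the genotypes stood apart, they were compared at d4 and at d4G, which use separate libraries. The genotypes differed in 2294 genes at d4 (18.9%) and in 960 at d4G (7.9%). Of the 323 genes with a called difference in response, 264 were called at d4 and 109 at d4G. In 249 of them (77.1%) the gap between genotypes was larger at d4, which held for 58.7% of all genes tested. The median size of the gap over these genes was 0.843 on the log2 scale at d4 and 0.36 at d4G, against 0.263 and 0.2 over all genes tested. The side on which the Nr6a1-/- cells stood at d4 differed between classes, although the difference in response, both responses and both gaps share libraries, so that these values stand side by side and do not support each other. The 69 lost genes that rose in wildtype cells had a median wildtype response of 0.931, an Nr6a1-/- response of -0.148, a gap of 0.887 at d4 and a gap of -0.14 at d4G (Nr6a1-/- minus wildtype), and at d4 59 were higher and 2 lower in Nr6a1-/- cells past the threshold. The 57 lost genes that fell had medians of -0.611, 0.0189, -0.438 and 0.181 in the same order, with 45 called lower and 1 higher at d4. In the 22 reversed genes that rose in wildtype cells these medians were 0.818, -0.929, 1.59 and -0.565. The 32 amplified genes that rose had medians of 1.12, 2.89, -0.894 and 0.203, with 26 called lower at d4 in Nr6a1-/- cells and 0 higher. The 59 gained genes that fell in Nr6a1-/- cells had medians of 0.0857, -1.2, 1.16 and -0.187, with 46 called higher and 2 lower at d4. By median, the gap was larger at d4 than at d4G in every class and direction but the 19 amplified genes that fell, at 0.352 and -0.784.

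**Figure D3:**
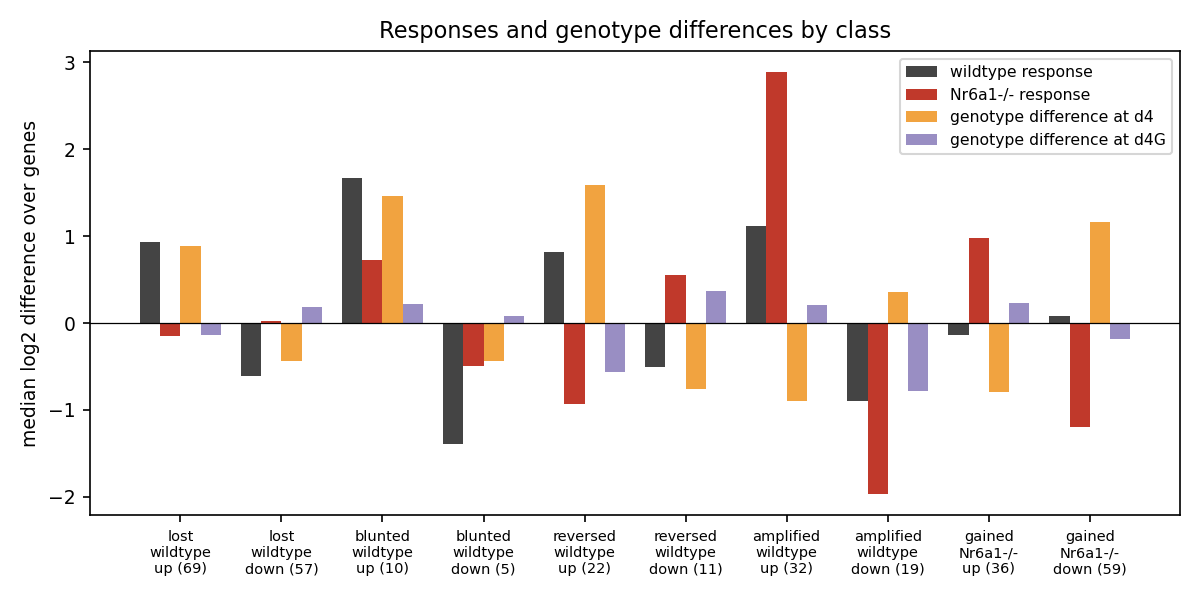
Median log2 difference over the genes of each class, split by the direction of the response named under the bars, with the number of genes in brackets. Bars show the wildtype response, the Nr6a1-/- response and the genotype difference (Nr6a1-/- minus wildtype) at d4 and at d4G. The 4 quantities share libraries. Lost genes that rose in wildtype cells were 0.887 higher in Nr6a1-/- cells at d4 and -0.14 apart at d4G.

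Lost inductions included Tgfb2, the gene of another secreted TGF-β ligand, Wfikkn1, whose protein binds and inhibits Gdf11 and Gdf8, and the antisense RNA Nr6a1os. Tgfb2 (GRCm38 chromosome 1, 186622792 to 186705989, minus strand) stood at 2.18, 1.93 and 2.1 CPM in d4 wildtype and 15.8, 19.5 and 16.4 CPM in d4G wildtype replicates 1, 2 and 3. Nr6a1-/- libraries held 3.03, 3.39 and 5.11 CPM at d4 and 6.25, 5.73 and 2.15 CPM at d4G, so that d4G wildtype alone was high and the other groups overlapped or lay close (log2 -2.81, SE 0.67, FDR = 0.00984). The call for Tgfb2 was lost without d4 Nr6a1-/- replicate 3 (log2 -2.54, FDR = 0.0796), and its FDR ran from 0.000595 to 0.0796 across the alternatives tried. Wfikkn1 (chromosome 17, 25877628 to 25880858, minus strand) went from 11.3, 11.6 and 15.9 to 47.0, 49.1 and 57.3 CPM in wildtype cells and from 2.6, 9.68 and 6.82 to 9.62, 1.91 and 4.72 CPM in Nr6a1-/- cells (log2 -2.12, SE 0.48, FDR = 0.00785). Here the Nr6a1-/- groups overlapped and lay below both wildtype groups. The call for Wfikkn1 was lost without d4 Nr6a1-/- replicate 2 (log2 -1.71, FDR = 0.1), and its FDR ran from 0.000175 to 0.1 across the alternatives tried. The RefSeq promoters of both genes (250 bases before to 50 after the start, GRCm38.p6) are shown because these 2 genes, with Nr6a1os, had large lost inductions, and the Smad box CAGAC or its complement GTCTG, searched on both strands, is in capitals.
Tgfb2 promoter (chr1:186705940-186706239, minus strand): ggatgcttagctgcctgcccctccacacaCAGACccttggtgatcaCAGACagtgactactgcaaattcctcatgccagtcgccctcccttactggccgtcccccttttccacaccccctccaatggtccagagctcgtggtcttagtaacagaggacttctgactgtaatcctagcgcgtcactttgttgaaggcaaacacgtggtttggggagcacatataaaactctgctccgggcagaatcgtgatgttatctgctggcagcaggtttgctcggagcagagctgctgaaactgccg
Wfikkn1 promoter (chr17:25880809-25881108, minus strand): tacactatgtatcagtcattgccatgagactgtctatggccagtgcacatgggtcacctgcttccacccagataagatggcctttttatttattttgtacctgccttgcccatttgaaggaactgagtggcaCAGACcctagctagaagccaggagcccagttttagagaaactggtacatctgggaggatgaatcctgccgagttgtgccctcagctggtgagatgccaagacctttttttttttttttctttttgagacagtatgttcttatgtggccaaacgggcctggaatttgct
The Tgfb2 window held 2 matches and the Wfikkn1 window 1, but 49.6% of the 32851 promoters in the RefSeq table held at least 1, so that a match says little about binding. The motif AAGGTCA or its complement TGACCTT, part of the direct repeats that Nr6a1 binds, was in neither window and in 4.72% of all promoters.

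Other lost inductions were those of NMP genes, Wnt ligand genes and Fstl1. T, the transcription factor Brachyury of NMPs and nascent mesoderm, rose from 90.2, 74.3 and 86.5 to 156, 157 and 165 CPM in wildtype cells. Nr6a1-/- libraries held 132, 111 and 159.8 CPM at d4 and 115, 109.5 and 107 CPM at d4G (log2 -1.22, SE 0.15, FDR = 1.54e-06), so that the d4 libraries spread widely and overlapped the d4G libraries. Greb1, a cofactor gene co-expressed with T in NMPs, went from 43.6, 44.2 and 40.2 to 79.6, 92.2 and 83.1 CPM in wildtype and from 79.7, 68.7 and 85.2 to 65.9, 64.3 and 68.2 CPM in Nr6a1-/- cells (log2 -1.23, SE 0.17, FDR = 1.1e-05). Wnt3a, a Wnt ligand that maintains the progenitors, rose from 5.67, 4.14 and 7.5 to 15.3, 13.8 and 9.28 CPM in wildtype cells. Its d4 Nr6a1-/- libraries already stood at 32.0, 31.4 and 32.8 CPM, above all wildtype libraries, and its d4G Nr6a1-/- libraries at 26.4, 12.7 and 28.3 CPM (log2 -1.61, SE 0.37, FDR = 0.00832). Wnt6 gave log2 responses of 0.99 in wildtype and -0.51 in Nr6a1-/- cells (log2 -1.50, SE 0.27, FDR = 0.00056). Fstl1, which encodes a secreted protein related to follistatin, gave 0.46 and -0.20 (log2 -0.66, SE 0.14, FDR = 0.00359). Calls for all 5 of these genes held in the 12 fits that left out 1 library. Nr6a1os (chromosome 2, 38823257 to 38852370, plus strand) overlaps Nr6a1 on the other strand, and strand use is not given in the sources used here, so that reads of the pair cannot be told apart. Its log2 responses were 2.36 in wildtype and -0.13 in Nr6a1-/- cells (log2 -2.49, SE 0.50, FDR = 0.00151). L1cam, a neural cell adhesion gene, gave 2.64 and 0.34 (log2 -2.30, SE 0.67, FDR = 0.022). Its wildtype rise started from 6 counts over the d4 libraries, with means of 0.577 CPM at d4 and 4.26 CPM at d4G. In Nr6a1-/- cells the means were 10.67 CPM at d4 and 13.49 CPM at d4G. Every Nr6a1-/- library stood above every wildtype library, and every d4G Nr6a1-/- library above every d4 Nr6a1-/- library. The call for L1cam was lost without d4 wildtype replicate 1, d4G wildtype replicate 2 or 3 or d4 Nr6a1-/- replicate 3, most clearly without d4 wildtype replicate 1 (log2 -1.91, FDR = 0.0768), and its FDR ran from 0.0168 to 0.0768 across the alternatives tried.

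Repressions were lost as well. Hoxb9, a Hox gene of the trunk (group 9), fell in wildtype cells from 92.4, 82.6 and 92.2 to 56.3, 59.3 and 45.5 CPM. It stood at 30.8, 35.8 and 34.9 CPM in d4 and 41.8, 39.5 and 53.2 CPM in d4G Nr6a1-/- libraries, where d4 was below every wildtype library and the d4G libraries were higher than the d4 ones (log2 1.15, SE 0.22, FDR = 0.00127). Myl1, a muscle myosin light chain gene, fell from 17.4, 16.9 and 18.6 to 2.79, 3.65 and 3.79 CPM in wildtype cells and lay between 2.6 and 3.86 CPM in all 6 Nr6a1-/- libraries (log2 2.51, SE 0.56, FDR = 0.00669). Myc, the growth regulator, went from 30.5, 27.4 and 21.9 to 11.6, 11.8 and 16.0 CPM and from 12.1, 16.0 and 15.3 to 17.8, 20.4 and 14.6 CPM (log2 1.26, SE 0.33, FDR = 0.0222). The call for Myc was lost without d4 wildtype replicate 1, d4G wildtype replicate 1 or 2 or d4G Nr6a1-/- replicate 1 or 2, most clearly without d4G Nr6a1-/- replicate 2 (log2 1.16, FDR = 0.0705), and its FDR ran from 0.00741 to 0.0705 across the alternatives tried. Lhfp gave a difference of 1.86 (FDR = 0.033). The call for Lhfp was lost without d4 wildtype replicate 3, d4G wildtype replicate 1, d4 Nr6a1-/- replicate 2 or 3 or d4G Nr6a1-/- replicate 2 or 3, most clearly without d4 Nr6a1-/- replicate 3 (log2 1.52, FDR = 0.134), and its FDR ran from 0.00432 to 0.159 across the alternatives tried. Etv2, which drives blood and vessel progenitors, gave 2.18 (FDR = 0.0118). The call for Etv2 was lost without d4 wildtype replicate 2 or d4 Nr6a1-/- replicate 3, most clearly without d4 wildtype replicate 2 (log2 1.83, FDR = 0.0638), and its FDR ran from 0.000641 to 0.128 across the alternatives tried. Gm7434 is annotated as a processed pseudogene, whose reads may belong to its parent gene (1.34, FDR = 0.0262). The call for Gm7434 was lost without d4 wildtype replicate 3, d4G wildtype replicate 1 or 2, d4 Nr6a1-/- replicate 2 or 3 or d4G Nr6a1-/- replicate 1 or 3, most clearly without d4G Nr6a1-/- replicate 3 (log2 1.24, FDR = 0.097), and its FDR ran from 0.00658 to 0.097 across the alternatives tried.

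**Figure D4:**
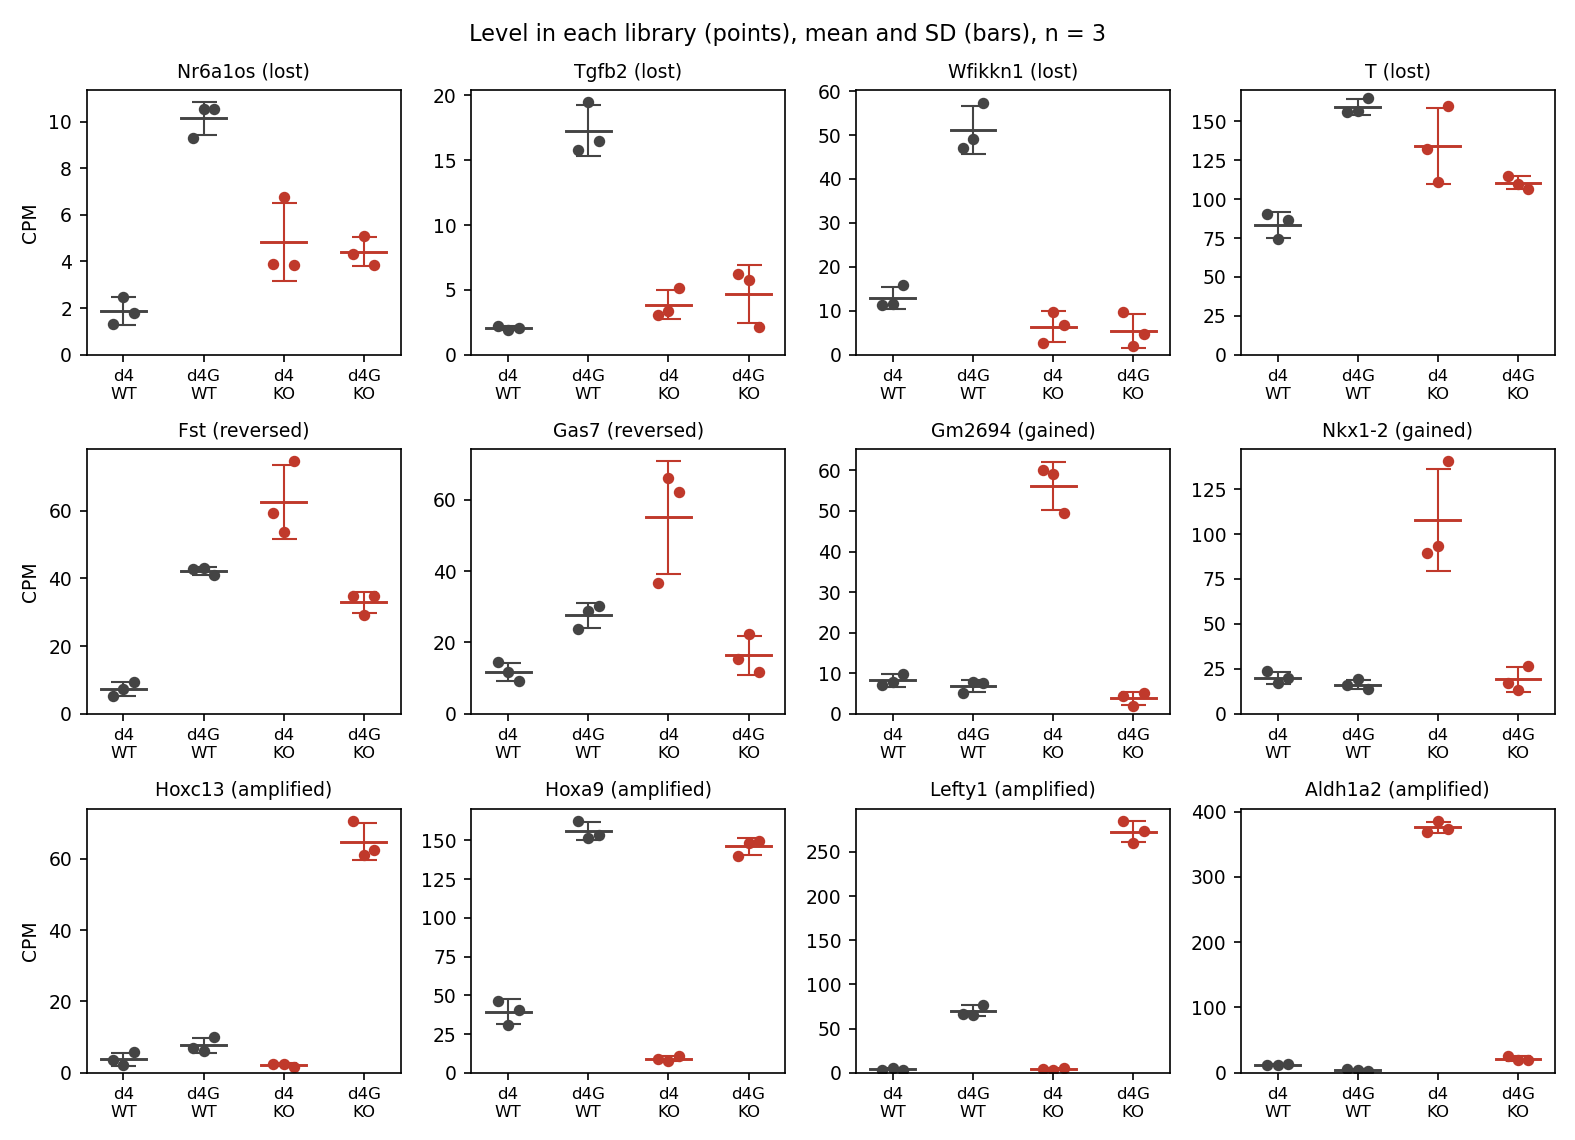
CPM of 12 genes in each of the 12 libraries, with 1 point a library, wildtype (WT) in grey and Nr6a1-/- (KO) in red, and the mean and SD of each group (n = 3) as lines. The class of the gene is in the title. Each vertical axis starts at 0 and has its own range. Fst, for example, lies at 7.33 CPM on average in d4 wildtype, 42.2 in d4G wildtype, 62.5 in d4 Nr6a1-/- and 32.9 in d4G Nr6a1-/- cells.

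Blunted responses kept their direction with a smaller size. Lzts1 rose from 0.872, 1.38 and 1.2 to 34.9, 31.3 and 44.3 CPM in wildtype and from 11.3, 20.3 and 16.2 to 55.8, 54.1 and 39.0 CPM in Nr6a1-/- cells (log2 -3.26, SE 0.56, FDR = 1.24e-05). Every d4 Nr6a1-/- library was above every d4 wildtype library. Mixl1, a homeobox gene of the primitive streak, rose from 17.0, 27.9 and 23.1 to 119, 144 and 138 CPM and from 75.4, 163 and 109.5 to 273, 211 and 216 CPM (log2 -1.51, SE 0.28, FDR = 0.00064). The nuclear receptor gene Rora gave log2 responses of 2.21 and 0.77 (log2 -1.44, SE 0.35, FDR = 0.0118). Among repressions, Phlda2, an imprinted gene that restrains placental growth, fell from 438, 390.1 and 446 to 98.6, 116 and 121 CPM and from 259.5, 289.8 and 217 to 106, 106 and 107 CPM, and the genotypes overlapped at d4G (log2 0.66, SE 0.15, FDR = 0.00615). The calls for Lzts1, Mixl1, Rora and Phlda2 held when any 1 library was left out. Id3, a target of BMP signalling that inhibits basic helix-loop-helix factors, gave -1.95 and -1.15 (difference 0.81, FDR = 0.0365). It fell in Nr6a1-/- cells from 140, 73.5 and 83.5 to 47.1, 41.4 and 45.5 CPM, highest in d4 replicate 1, which stood apart. The call for Id3 was lost without d4 wildtype replicate 1 or 3, d4G wildtype replicate 1 or 2, d4 Nr6a1-/- replicate 2 or 3 or d4G Nr6a1-/- replicate 1 or 3, most clearly without d4 Nr6a1-/- replicate 3 (log2 0.69, FDR = 0.133), and its FDR ran from 2.34e-05 to 0.133 across the alternatives tried. Cited2 gave a difference of 0.93 (FDR = 0.012). The call for Cited2 was lost without d4G Nr6a1-/- replicate 3 (log2 0.78, FDR = 0.0686), and its FDR ran from 0.000527 to 0.0686 across the alternatives tried. Polr1d, a subunit gene of RNA polymerases I and III, gave 0.65 (FDR = 0.0175). It fell in Nr6a1-/- cells from 269, 178.5 and 150 to 145, 142 and 137 CPM. Here too d4 replicate 1 was the highest, so that the size of the Nr6a1-/- fall depends on this library. The call for Polr1d was lost without d4G wildtype replicate 1 or d4 Nr6a1-/- replicate 2 or 3, most clearly without d4 Nr6a1-/- replicate 3 (log2 0.48, FDR = 0.0773), and its FDR ran from 7.86e-07 to 0.125 across the alternatives tried. Wnt5b gave -0.68 (FDR = 0.0275). The call for Wnt5b was lost without d4 wildtype replicate 2 or 3, d4G wildtype replicate 1, d4 Nr6a1-/- replicate 3 or d4G Nr6a1-/- replicate 3, most clearly without d4 Nr6a1-/- replicate 3 (log2 -0.57, FDR = 0.146), and its FDR ran from 0.0111 to 0.146 across the alternatives tried.

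Reversed responses included Fst, which encodes follistatin, a secreted inhibitor of activins and Gdf11. Fst (chromosome 13, 114452290 to 114458951, minus strand) rose from 5.23, 7.46 and 9.31 to 42.8, 43.0 and 40.9 CPM in wildtype cells and fell from 59.3, 53.7 and 74.6 to 34.6, 29.3 and 34.8 CPM in Nr6a1-/- cells, with no overlap between d4 and d4G in either genotype (log2 -3.40, SE 0.22, FDR = 8.08e-14). Its d4 Nr6a1-/- libraries were above even the d4G wildtype libraries. Wnt7a, a Wnt ligand gene, had 3 counts over the d4 wildtype libraries and 14 over the d4G wildtype libraries, a ratio of 6.18 with an exact 95% counting interval of 1.72 to 33.5. Such intervals take each count as 1 molecule, and whether reads copied from the same molecule were collapsed is not given in the sources used here. The place of Wnt7a in this class therefore rests on few wildtype counts. The Nr6a1-/- level fell from 14.7, 20.3 and 27.7 to 0.481, 1.27 and 1.72 CPM (log2 -6.56, SE 1.15, FDR = 2.11e-05). Its RefSeq promoter is shown for this fall, with the Smad box in capitals as above, of which it held 1.
Wnt7a promoter (chr6:91411304-91411603, minus strand): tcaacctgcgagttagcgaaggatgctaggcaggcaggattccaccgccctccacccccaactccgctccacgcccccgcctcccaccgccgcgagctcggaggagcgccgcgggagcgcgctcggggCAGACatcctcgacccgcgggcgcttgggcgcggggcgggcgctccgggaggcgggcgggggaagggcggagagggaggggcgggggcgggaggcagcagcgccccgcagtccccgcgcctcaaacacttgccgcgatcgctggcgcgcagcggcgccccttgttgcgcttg
Gas7 (chromosome 11, 67455437 to 67688990, plus strand) rose from 14.4, 11.6 and 9.31 to 23.7, 28.8 and 30.4 CPM in wildtype cells and fell from 36.8, 66.3 and 62.2 to 15.4, 22.3 and 11.6 CPM in Nr6a1-/- cells (log2 -3.05, SE 0.40, FDR = 1.98e-06). Lpl, which encodes lipoprotein lipase, gave log2 responses of 1.36 and -1.23 (log2 -2.59, SE 0.31, FDR = 6.99e-07). Cyp26a1, the enzyme that degrades retinoic acid in the tail end of the embryo, rose from 23.5, 24.6 and 27.3 to 34.9, 46.3 and 33.7 CPM and fell from 20.8, 38.2 and 27.3 to 18.3, 18.5 and 15.0 CPM (log2 -1.34, SE 0.28, FDR = 0.00281). In the opposite sense, Car4, a carbonic anhydrase gene, fell from 97.2, 101 and 89.2 to 65.1, 59.3 and 46.8 CPM in wildtype cells and rose from 1.3, 2.42 and 0.426 to 7.7, 13.4 and 9.87 CPM in Nr6a1-/- cells, where its level stayed below every wildtype library (log2 3.61, SE 0.48, FDR = 1.38e-07). Srm, the spermidine synthase gene, fell from 200.1, 218 and 195 to 104, 116 and 114 CPM and rose from 139.9, 94.3 and 127 to 150.5, 139.5 and 154 CPM, although its d4G Nr6a1-/- values touch the range of its d4 values (log2 1.17, SE 0.14, FDR = 1.54e-06). The semaphorin gene Sema3c gave -2.04 and 2.17 (log2 4.20, SE 0.93, FDR = 0.00124). Its Nr6a1-/- response rests on few counts, 5 over the d4 libraries (1.3, 0 and 0.852 CPM) and 21 over the d4G libraries (4.33, 3.18 and 3 CPM). Its mean passed 10 CPM in d4 wildtype alone (11.2 CPM). Cited1 gave -0.27 and 0.58 (log2 0.85, SE 0.14, FDR = 0.000246). Trim9 went from 8.72, 11.9 and 16.5 to 2.79, 5.68 and 10.1 CPM in wildtype and from 81.9, 64.3 and 61.8 to 105, 95.5 and 103 CPM in Nr6a1-/- cells (log2 1.55, SE 0.38, FDR = 0.0118). The call for Trim9 was lost without d4 wildtype replicate 3 or d4G wildtype replicate 1 or 2, most clearly without d4 wildtype replicate 3 (log2 1.29, FDR = 0.0786), and its FDR ran from 8.57e-05 to 0.0786 across the alternatives tried. Of the genes of this class named here, Trim9 alone lost its call when 1 library was left out.

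Gained responses, called in Nr6a1-/- cells alone, were repressions in 59 genes and inductions in 36. Nkx1-2, a homeobox gene that marks NMPs, lay between 13.9 and 23.5 CPM in all 6 wildtype libraries. It stood at 89.2, 93.4 and 141 CPM in d4 and 17.3, 13.4 and 26.6 CPM in d4G Nr6a1-/- libraries (log2 -2.18, SE 0.31, FDR = 1.54e-05), so that the d4 Nr6a1-/- group stood alone. Gm2694, a long noncoding RNA, had the same shape, with 60.2, 59.0 and 49.4 CPM in d4 Nr6a1-/- libraries and 1.91 to 9.91 CPM in the other 9 (log2 -3.52, SE 0.41, FDR = 3.55e-07). The promoter of Nkx1-2 is shown because it was the NMP gene with the larger gained repression of the 2 found, with the Smad box in capitals.
Nkx1-2 promoter (chr7:132599588-132599887, minus strand): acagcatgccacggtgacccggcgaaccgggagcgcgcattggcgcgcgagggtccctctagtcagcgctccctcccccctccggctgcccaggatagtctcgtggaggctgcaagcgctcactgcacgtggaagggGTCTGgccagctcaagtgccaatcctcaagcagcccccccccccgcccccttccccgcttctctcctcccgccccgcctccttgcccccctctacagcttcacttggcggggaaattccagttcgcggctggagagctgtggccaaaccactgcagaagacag
The window held 1 match. Scn2b, a sodium channel subunit gene, gave log2 responses of 0.65 in wildtype and -2.13 in Nr6a1-/- cells (log2 -2.77, SE 0.43, FDR = 4.79e-05). Peg3, an imprinted gene, stood at 878, 837 and 639.5 CPM in d4 and 456, 454 and 459 CPM in d4G Nr6a1-/- libraries and between 261 and 357 CPM in wildtype libraries (log2 -0.99, SE 0.13, FDR = 7.03e-06). Apln, which encodes the peptide ligand apelin, fell from 22.1, 23.2 and 40.0 to 0.962, 0.637 and 0.858 CPM in Nr6a1-/- cells and stood at 0.872, 1.93 and 2.7 and 1.4, 2.03 and 0.422 CPM in d4 and d4G wildtype libraries (log2 -4.44, SE 1.09, FDR = 0.0134). With 18 counts over the d4 and 9 over the d4G wildtype libraries, its wildtype response was not measurable at this depth. The call for Apln was lost without d4G wildtype replicate 1 or 2, most clearly without d4G wildtype replicate 2 (log2 -3.92, FDR = 0.168), and its FDR ran from 0.000161 to 0.168 across the alternatives tried. Dopey2 gave a difference of -2.77 (FDR = 0.00973). The call for Dopey2 was lost without d4G wildtype replicate 3 or d4G Nr6a1-/- replicate 3, most clearly without d4G wildtype replicate 3 (log2 -2.45, FDR = 0.062), and its FDR ran from 0.00144 to 0.069 across the alternatives tried.

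Among gained inductions, Pax3, a transcription factor gene of somites and dorsal neural tube, rose from 0.866, 0.484 and 0.426 to 6.25, 8.28 and 6 CPM in Nr6a1-/- cells. Its level was 13.1, 6.63 and 8.11 CPM in d4 and 17.2, 11.8 and 9.28 CPM in d4G wildtype libraries, which overlapped (log2 2.89, SE 0.80, FDR = 0.00793). Hoxb5os, a noncoding RNA of the Hoxb cluster, rose from 308, 195 and 178 to 477, 430.5 and 489 CPM in Nr6a1-/- cells and stayed between 349 and 441 CPM in wildtype libraries (log2 1.13, SE 0.18, FDR = 0.000155). It lies among the Hoxb genes, from which its reads cannot be told apart where strand was not used. Nexn, which encodes an actin-binding protein, rose from 7.36, 9.19 and 8.1 to 23.6, 24.2 and 23.2 CPM in Nr6a1-/- cells, up to its level in wildtype libraries (log2 1.53, SE 0.30, FDR = 0.0014). Tapbp, which loads peptides onto MHC class I, gave 0.43 and 2.01 (log2 1.58, SE 0.36, FDR = 0.00666), and the synaptic vesicle gene Sv2b gave 0.43 and 2.21 (log2 1.78, SE 0.39, FDR = 0.00615). The calls for these 5 genes held when any 1 library was left out. With counts thinned to the smallest library, those for Pax3 (FDR = 0.0673) and Sv2b (FDR = 0.059) were lost.

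Amplified responses included direct feedback genes of the pathway. Lefty1 and Lefty2 encode near-identical secreted inhibitors of Nodal, so that the split of reads between them is uncertain. Lefty1 (chromosome 1, 180935022 to 180938400, plus strand) rose from 3.49, 4.97 and 3 to 67.0, 65.8 and 77.2 CPM in wildtype and from 4.76, 2.9 and 5.11 to 285, 260.5 and 274 CPM in Nr6a1-/- cells (log2 1.82, SE 0.33, FDR = 0.00056). Lefty2 rose from 3.92, 1.1 and 3 to 48.9, 55.6 and 67.9 CPM and from 1.3, 2.42 and 0.852 to 313, 331 and 329 CPM (log2 3.22, SE 0.64, FDR = 0.000958). The d4 libraries of both genotypes overlapped for Lefty1, and every d4G Nr6a1-/- library stood above every d4G wildtype library for both genes. Smad7, the inhibitory Smad, went from 11.3, 7.74 and 10.8 to 28.8, 30.9 and 29.5 CPM and from 2.6, 2.42 and 1.7 to 31.7, 38.9 and 28.7 CPM (log2 2.24, SE 0.48, FDR = 0.00135). Here the genotypes were apart at d4 and overlapped at d4G. Tbx3, a T-box gene of the limb field and lateral mesoderm, rose from 27.9, 26.2 and 35.7 to 79.1, 74.3 and 104 CPM and from 8.23, 8.22 and 15.3 to 161, 168 and 133 CPM (log2 2.33, SE 0.29, FDR = 7.15e-07). Tbx3 started lower and ended higher in Nr6a1-/- cells, with no overlap between genotypes at either treatment. Msx2, a target of BMP signalling, gave 0.92 and 3.33 (log2 2.40, SE 0.53, FDR = 0.00175), and Dkk1, a secreted Wnt inhibitor, gave 1.48 and 2.67 (log2 1.19, SE 0.27, FDR = 0.00469) at lower levels in Nr6a1-/- cells throughout. The call for Dkk1 was lost with thinned counts (FDR = 0.0653). Cdkn1c, an imprinted inhibitor of the cell cycle, and Fn1, which encodes fibronectin, gave differences of 1.39 (FDR = 5.31e-06) and 0.87 (FDR = 0.000312).

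Amplified repressions were led by Aldh1a2, the enzyme that makes retinoic acid in the somites. It fell from 11.8, 11.3 and 12.9 to 6.05, 4.06 and 2.53 CPM in wildtype and from 369.5, 386 and 373 to 25.5, 19.7 and 19.7 CPM in Nr6a1-/- cells (log2 -2.59, SE 0.38, FDR = 0.000135), so that its d4 Nr6a1-/- level stood far above all other libraries. Its promoter, which held neither motif, is given for comparison with those above.
Aldh1a2 promoter (chr9:71215539-71215838, plus strand): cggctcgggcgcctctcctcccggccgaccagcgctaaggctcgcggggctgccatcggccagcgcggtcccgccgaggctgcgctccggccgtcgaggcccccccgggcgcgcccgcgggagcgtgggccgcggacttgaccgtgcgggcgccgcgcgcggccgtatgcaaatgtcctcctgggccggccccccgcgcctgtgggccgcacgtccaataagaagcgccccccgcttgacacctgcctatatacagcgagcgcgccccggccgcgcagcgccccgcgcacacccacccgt
Crabp2, which carries retinoic acid to its receptors, fell from 165, 139.8 and 160.3 to 59.5, 58.1 and 59.9 CPM and from 351, 235 and 271 to 64.5, 54.8 and 60.9 CPM (log2 -0.86, SE 0.18, FDR = 0.00295), and both genotypes ended in an overlapping range. Lin28a, an RNA-binding protein gene that blocks let-7 maturation, fell from 195, 220.5 and 198 to 97.7, 86.9 and 97.8 CPM and from 219, 275 and 291 to 66.4, 65.6 and 63.5 CPM (log2 -0.88, SE 0.14, FDR = 9.02e-05). Cdx2, a caudal homeobox gene, fell from 88.5, 92.8 and 108 to 46.1, 45.9 and 43.0 CPM and from 84.0, 90.0 and 97.6 to 24.5, 22.9 and 21.9 CPM (log2 -0.87, SE 0.20, FDR = 0.00877). Lin28a and Cdx2 ended lower in every d4G Nr6a1-/- library than in any d4G wildtype library. Ppp1r1a, a phosphatase inhibitor gene, gave -1.05 and -3.40 (log2 -2.35, SE 0.48, FDR = 0.00164), Necab2 gave -1.16 and -3.23 (log2 -2.07, SE 0.42, FDR = 0.00251), and Id2 gave -0.54 and -1.51 (log2 -0.97, SE 0.21, FDR = 0.00529). Itga6, an integrin gene, gave a difference of -1.51 (FDR = 0.0278). The call for Itga6 was lost without d4 wildtype replicate 3, d4G wildtype replicate 1 or 2, d4 Nr6a1-/- replicate 3 or d4G Nr6a1-/- replicate 1 or 2, most clearly without d4 Nr6a1-/- replicate 3 (log2 -1.31, FDR = 0.103), and its FDR ran from 0.000756 to 0.211 across the alternatives tried. Etv4, a target of FGF signalling, gave -0.91 (FDR = 0.0189). The call for Etv4 was lost without d4 wildtype replicate 1, d4G wildtype replicate 1 or 3, d4 Nr6a1-/- replicate 3 or d4G Nr6a1-/- replicate 3, most clearly without d4G wildtype replicate 1 (log2 -0.83, FDR = 0.0788), and its FDR ran from 0.00924 to 0.0788 across the alternatives tried.

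The pathway itself was then examined by role. The gene lists used here and below were chosen with earlier results of these data known. Their counts of calls therefore stand beside the background and cannot test an excess over it. Of 24 genes for ligands, receptors, Smads and processing enzymes, 16 were tested and 2 were called (background 2.66%), 1 in each direction, whereas DESeq2 called 0. In edgeR 4 lay at an unadjusted p below 0.05, as did 1805 of all 12149 genes tested. The list had a median difference in response of -0.206 against -0.0236 over all genes tested. Among ligands, Gdf11 itself stood at 179.6, 208 and 313 CPM in d4 and 157, 164 and 223 CPM in d4G wildtype libraries and rose from 86.2, 63.9 and 63.5 to 158, 118 and 93.9 CPM in Nr6a1-/- cells (log2 1.16, SE 0.28, FDR = 0.0158). The call for Gdf11 was lost without d4 wildtype replicate 3, d4G wildtype replicate 2, d4 Nr6a1-/- replicate 2 or 3 or d4G Nr6a1-/- replicate 1, most clearly without d4G Nr6a1-/- replicate 1 (log2 0.93, FDR = 0.0928), and its FDR ran from 1.76e-09 to 0.135 across the alternatives tried. Nodal, another ligand, rose in both genotypes, by 3.02 and 4.11, with a difference of 1.08 (95% interval -0.53 to 2.70, FDR = 0.551). Among the Smads that carry the signal, Smad3 fell in Nr6a1-/- cells from 28.6, 31.9 and 37.9 to 20.2, 19.7 and 16.7 CPM and stood between 13.1 and 20.2 CPM in wildtype libraries (log2 -1.07, SE 0.26, FDR = 0.0158). The call for Smad3 was lost without d4G wildtype replicate 3, d4 Nr6a1-/- replicate 3 or d4G Nr6a1-/- replicate 3, most clearly without d4G wildtype replicate 3 (log2 -0.96, FDR = 0.0708), and its FDR ran from 0.00476 to 0.0708 across the alternatives tried. Smad2 (difference -0.77, 95% interval -1.32 to -0.22, FDR = 0.135), Smad4 (-0.37, -0.76 to 0.03, FDR = 0.379) and the receptor genes Tgfbr1 (-0.46, -0.94 to 0.03, FDR = 0.372) and Acvr1b (-1.37, -2.32 to -0.42, FDR = 0.113) were not called.

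Of 18 feedback genes and inhibitors, 13 were tested. All 13 rose with Gdf11 in wildtype cells, and 9 rose and 1 fell in Nr6a1-/- cells. Over all 12149 genes tested, 1741 rose in wildtype cells, and 1026 rose and 1165 fell in Nr6a1-/- cells. The difference in response was called in 7 of the 13 listed genes (background 2.66%), 4 positive (Lefty1, Lefty2, Smad7 and Skil) and 3 negative (Fst, Wfikkn1 and Fstl1). Without d4 wildtype replicate 2 it was called in 6 and without d4 Nr6a1-/- replicate 1 in 7. As background, Lefty proteins inhibit Nodal outside the cell and Smad7 and Skil act inside it on receptors and Smads, while Fst and Wfikkn1 proteins bind Gdf11 itself. Skil, a transcriptional corepressor that binds Smads, rose from 52.8, 87.6 and 63.6 to 329.9, 361 and 407 CPM and from 32.5, 41.1 and 34.5 to 447, 391 and 287 CPM (log2 0.97, SE 0.24, FDR = 0.0163). The call for Skil was lost without d4 wildtype replicate 2, d4 Nr6a1-/- replicate 3 or d4G Nr6a1-/- replicate 1, most clearly without d4 wildtype replicate 2 (log2 0.74, FDR = 0.104), and its FDR ran from 1.16e-06 to 0.12 across the alternatives tried. Its relative Ski rose by 1.69 and 1.64 (difference -0.04, 95% interval -0.40 to 0.32, FDR = 0.949), and Pmepa1, which sequesters Smads, by 3.94 and 4.25 (0.31, -0.65 to 1.27, FDR = 0.833).

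Hox genes were grouped by the axial level at which they act. Of the 13 anterior genes tested, 0 were called in edgeR and 0 in DESeq2, with 2 at an unadjusted p below 0.05 in edgeR. Over all 12149 genes tested, 1805 lay below that p. Of the 11 trunk genes, 2 were called, Hoxb9 (above) and Hoxa9, and of the 10 posterior genes 2, Hoxc13 and Hoxb13, all 4 positive, where the background for positive calls was 1.17%. Hoxa9 (chromosome 6, 52223100 to 52231089, minus strand) rose from 46.6, 30.7 and 40.5 to 163, 152 and 154 CPM in wildtype and from 9.1, 7.74 and 10.7 to 140.0, 148 and 149.7 CPM in Nr6a1-/- cells (log2 1.97, SE 0.25, FDR = 1.98e-06), with d4 Nr6a1-/- below every wildtype library and the d4G ranges of the genotypes next to each other. Hoxc13 (chromosome 15, 102921103 to 102928814, plus strand), the last gene of its cluster, rose from 3.49, 2.21 and 5.7 to 6.98, 6.09 and 10.1 CPM and from 2.6, 2.42 and 1.7 to 70.7, 61.1 and 62.6 CPM (log2 3.81, SE 0.52, FDR = 2.85e-06). Hoxb13, the last gene of the Hoxb cluster, rose from 19.1, 27.1 and 18.8 to 142, 145 and 148 CPM in Nr6a1-/- cells. In wildtype cells it had 6 counts at d4 and 2 at d4G, a ratio of 0.441 with an exact 95% counting interval of 0.0436 to 2.47, so that its response there was not measurable at this depth (log2 3.80, SE 1.21, FDR = 0.0448). The call for Hoxb13 was lost without d4 wildtype replicate 1 or 2, d4G wildtype replicate 1 or 3, d4 Nr6a1-/- replicate 3 or d4G Nr6a1-/- replicate 1, 2 or 3, most clearly without d4 wildtype replicate 2 (log2 3.54, FDR = 0.198), and its FDR ran from 0.0152 to 0.431 across the alternatives tried. Over all 10 posterior genes, these 2 included, 9 were called higher with Gdf11 in wildtype and 10 in Nr6a1-/- cells, with median responses of 5.83 and 5.87, and DESeq2 called the difference in 3. Of all 12149 genes tested, 1741 were called higher in wildtype and 1026 in Nr6a1-/- cells. Hoxa10 rose by 5.56 and 5.25 (difference -0.31, 95% interval -1.43 to 0.82, FDR = 0.86) and Hoxd11 by 8.06 and 7.94 (-0.12, -1.98 to 1.74, FDR = 0.957). Hoxc10 rose by 6.99 and 5.17 (-1.82, -3.03 to -0.60, FDR = 0.118). The interval for Hoxd11 spans nearly 2 log2 units either way, with mean d4 levels of 0.422 CPM (wildtype) and 0.893 CPM (Nr6a1-/-). Among trunk genes not called, Hoxc8 gave 0.33 and -0.45 (-0.78, -1.23 to -0.32, FDR = 0.0517) and Hoxc9 2.02 and 2.22 (0.20, -0.25 to 0.65, FDR = 0.747).

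NMP genes held more calls than any other list with all libraries. All 22 listed were tested and 10 were called (background 2.66%), all 10 negative (background 1.49%; 9 called in DESeq2), with a median difference in response of -0.632 against -0.0236 over all genes tested. The count was 8 without d4 wildtype replicate 2 and 10 without d4 Nr6a1-/- replicate 1. Since this list was chosen with earlier results of these data known, its count cannot test an excess over the background. With Gdf11, 8 of the 22 fell and 9 rose in wildtype cells, and 13 fell and 3 rose in Nr6a1-/- cells. Over all 12149 genes tested, 1757 fell and 1741 rose in wildtype cells, and 1165 fell and 1026 rose in Nr6a1-/- cells. By class, 3 NMP genes were lost (T, Wnt3a and Greb1), 1 was blunted (Wnt5b), 1 reversed (Cyp26a1), 2 gained (Nkx1-2 and Cdx1) and 3 amplified (Cdx2, Sox2 and Sp8). Sox2, a factor of neural and pluripotent cells, fell from 42.7, 60.2 and 38.7 to 23.7, 17.1 and 18.6 CPM and from 33.4, 38.2 and 46.0 to 8.18, 3.82 and 7.72 CPM (log2 -1.24, SE 0.32, FDR = 0.0172). The call for Sox2 was lost without d4G wildtype replicate 1, d4 Nr6a1-/- replicate 3 or d4G Nr6a1-/- replicate 2, most clearly without d4G Nr6a1-/- replicate 2 (log2 -1.02, FDR = 0.0849), and its FDR ran from 0.000335 to 0.0849 across the alternatives tried. Sp8, a zinc finger gene that Wnt signals induce in the tail bud, gave -1.07 and -2.50 (log2 -1.43, SE 0.36, FDR = 0.0154). The call for Sp8 was lost without d4G wildtype replicate 3, d4 Nr6a1-/- replicate 3 or d4G Nr6a1-/- replicate 2 or 3, most clearly without d4G Nr6a1-/- replicate 3 (log2 -1.14, FDR = 0.11), and its FDR ran from 1.26e-07 to 0.11 across the alternatives tried. Cdx1 gave -0.18 and -0.76 (log2 -0.58, SE 0.16, FDR = 0.0379). The call for Cdx1 was lost without d4 wildtype replicate 2 or 3, d4G wildtype replicate 2 or 3, d4 Nr6a1-/- replicate 2 or 3 or d4G Nr6a1-/- replicate 1 or 2, most clearly without d4G wildtype replicate 2 (log2 -0.52, FDR = 0.127), and its FDR ran from 0.00999 to 0.127 across the alternatives tried. Fgf8 and Fgf17, which encode FGF ligands of the tail bud, moved alike in direction in both genotypes, by -1.54 and -1.80 (difference -0.25, 95% interval -0.72 to 0.21, FDR = 0.668) and by 1.21 and 1.15 (-0.06, -0.45 to 0.34, FDR = 0.94).

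Lineage lists held fewer calls. Of 16 presomitic and somite genes tested, 3 were called (Pax3 and Cited1 positive, Aldh1a2 negative), against a background of 2.66% for this and the lists that follow. With Gdf11, 11 of the 16 fell in each genotype, where 1757 of the 12149 genes tested fell in wildtype and 1165 in Nr6a1-/- cells. Hes7, an oscillating gene of the segmentation clock, fell by 3.53 and 3.40 on the log2 scale (difference 0.13, 95% interval -0.38 to 0.65, FDR = 0.869), and the Notch ligand gene Dll1 gave -0.77 and -0.94 (-0.17, -0.56 to 0.23, FDR = 0.765). Of 13 neural progenitor genes 2 were called (1 in DESeq2), Id2 and Ncam1, both negative. Ncam1, a neural adhesion gene, fell from 709.5, 595 and 726 to 360.3, 289 and 197 CPM in Nr6a1-/- cells (log2 -1.15, SE 0.30, FDR = 0.0243). The call for Ncam1 was lost without d4 wildtype replicate 1 or 2, d4G wildtype replicate 2 or 3, d4 Nr6a1-/- replicate 3 or d4G Nr6a1-/- replicate 3, most clearly without d4G Nr6a1-/- replicate 3 (log2 -0.94, FDR = 0.103), and its FDR ran from 1.13e-12 to 0.175 across the alternatives tried. Of 10 lateral mesoderm and hindlimb genes 3 were called, all positive, Tbx3 and Etv2 among them. Foxf1, a lateral mesoderm factor, missed the threshold at 2.27 and 5.24 (2.97, 0.74 to 5.19, FDR = 0.066). Of 13 endoderm genes 0 were called in edgeR and 0 in DESeq2, with 2 at an unadjusted p below 0.05 in edgeR, and 1 was called without d4 wildtype replicate 2. Of all 12149 genes tested, 1805 lay below that p and 279 were called without this library. Of 9 fibroblast genes 1 was called (2 in DESeq2), Tagln, an actin-binding protein gene of smooth muscle (log2 1.90, SE 0.45, FDR = 0.00973). The call for Tagln was lost without d4 wildtype replicate 2 (log2 1.44, FDR = 0.137), and its FDR ran from 0.00105 to 0.137 across the alternatives tried.

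In the retinoid list 3 of 12 genes were called, all negative (Aldh1a2, Crabp2 and Cyp26a1), and these encode the enzyme that makes retinoic acid, a carrier and the enzyme that degrades it. The background was 2.66% for calls in either direction and 1.49% for negative ones, and nothing is read from a list with 1 call. Of 17 Wnt targets and ligands 3 were called, Dkk1 positive and Wnt6 and Wnt7a negative. Of 16 FGF feedback genes 1 was called, Etv4, and of 13 BMP and Id genes 3, Msx2 and Id3 positive and Id2 negative. Of 20 imprinted genes 4 were called, Cdkn1c and Phlda2 positive and Peg3 and Sgce negative. Sgce was in the class in which neither response was called (log2 -0.95, SE 0.26, FDR = 0.0358). The call for Sgce was lost without d4 wildtype replicate 1, 2 or 3, d4G wildtype replicate 2 or 3, d4 Nr6a1-/- replicate 2 or 3 or d4G Nr6a1-/- replicate 2 or 3, most clearly without d4G Nr6a1-/- replicate 3 (log2 -0.81, FDR = 0.138), and its FDR ran from 0.0185 to 0.138 across the alternatives tried. Of 17 adhesion genes Fn1 was called. Among 11 genes of the Lin28 pathway and related timing genes Lin28a was called, while its paralogue Lin28b gave -0.64 and -0.70 (difference -0.06, 95% interval -0.46 to 0.34, FDR = 0.928), Hmga2 1.00 and 0.72 (-0.28, -0.63 to 0.07, FDR = 0.466) and Sall4 1.45 and 1.75 (0.30, -0.04 to 0.64, FDR = 0.42). Of 20 pluripotency and epiblast genes, Lefty1 alone was called (3 genes in DESeq2). Their median difference was 0.495 with all libraries and 0.0632 without d4 wildtype replicate 2. Dnmt3b, a DNA methyltransferase gene of the epiblast, stood at 71.1, 516 and 68.7 CPM in the d4 wildtype libraries, where replicate 2 was far above the others (log2 1.70, SE 0.55, FDR = 0.0898).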

How the data were processed

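RNA of 30 libraries (10 groups of stage and genotype, 3 replicates each, A, B and C called 1, 2 and 3) was primed at the poly(A) tail with a sample index, so that reads fall at 3′ ends and counts were not scaled by gene length. According to the submitters' processing notes, the authors used STAR and edgeR with the build mm10, versions and strand use not given in the sources used here. The deposited file holds raw counts per gene symbol (54134 rows, 26 of them turned into dates), not normalised. The deposited tables of genotype differences hold the authors' own comparisons and were not used. Totals of the 12 libraries compared ran from 1570714 to 3688197 counts.

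A gene entered the fit when at least 2 libraries of any group passed both 10 counts and 2 CPM (12149 genes). Counts were scaled by TMM and fitted in edgeR 4.0.16 (R 4.3.3) with glmQLFit over all 30 libraries (20 residual degrees of freedom), and contrasts were tested with glmQLFTest, 2-sided, at an FDR of 0.05. The fit was tested on simulated counts with known differences. Standard errors come from the fitted means and the moderated dispersion, and 95% intervals from its degrees of freedom. CPM are TMM-scaled without a prior count. No 2 replicates held the same counts.

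The members and the gene lists were chosen with earlier results of these data known. Genes named are up to 4 of the largest difference in each class and direction (at least 10 CPM in 1 group, still called without d4 wildtype replicate 2) and every called member of the lists; values of a few of these genes are not reported here. Symbols were placed with GENCODE vM21 (GRCm38), positions counted from 1. Alternatives were RLE or no factors, no filter on level, DESeq2 1.42.0, the 12 libraries alone, leaving out each library, a replicate block, thinned counts, an FDR of 0.01 and a size rule for the classes. Leaving out 2 libraries together and the ribosomal protein list were added after the data were seen. Same-numbered d4 and d4G libraries did not all deviate together (correlations 0.34, 0.066 and 0.42 in wildtype, 0.05, 0.028 and 0.019 in Nr6a1-/-), so numbers were not treated as pairs.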

Additional observations from a re-analysis of the deposited data

Results flagged for a closer look

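The test of the difference itself set apart 323 genes whose response to Gdf11 differed between the genotypes. In each class genes with a large difference in response in either direction, Nr6a1-/- minus wildtype on the log2 scale, are given here. Values by library stand in the report for some of them. Among lost responses the positive differences were those of Myl1 (2.51), Lhfp (1.86), Gm7434 (1.34) and Myc (1.26), and the negative ones those of Tgfb2 (-2.81), Nr6a1os (-2.49), L1cam (-2.30) and Wfikkn1 (-2.12). Among blunted responses the positive differences were those of Cited2 (0.93), Id3 (0.81), Phlda2 (0.66) and Polr1d (0.65), and the negative ones those of Lzts1 (-3.26), Mixl1 (-1.51) and Rora (-1.44). Among reversed responses the positive differences were those of Sema3c (4.20), Car4 (3.61), Trim9 (1.55) and Srm (1.17), and the negative ones those of Wnt7a (-6.56), Fst (-3.40), Gas7 (-3.05) and Lpl (-2.59). Among gained responses the positive differences were those of Pax3 (2.89), Sv2b (1.78), Tapbp (1.58) and Nexn (1.53), and the negative ones those of Apln (-4.44), Gm2694 (-3.52), Scn2b (-2.77) and Dopey2 (-2.77). Among amplified responses the positive differences were those of Hoxc13 (3.81), Lefty2 (3.22) and Msx2 (2.40), and the negative ones those of Aldh1a2 (-2.59), Ppp1r1a (-2.35), Necab2 (-2.07) and Itga6 (-1.51). Groups of 3 libraries were too small for a test of single outlying libraries. Of the 323 genes, 22 lie on chromosome 8 (6.81%), against 5.39% of the genes tested.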

How the results depend on the processing

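The number of genes with a called difference in response, 323, was 322 with RLE factors, 349 without factors, 422 without a filter on level, 281 in DESeq2 and 244 with counts thinned to the smallest library. It was 212 when only the 12 libraries compared were fitted, where 85 were positive, 60 were lost and 9 blunted. At an FDR of 0.01 it was 154 (61 positive, 93 negative, 47 lost, 6 blunted, 13 reversed, 57 gained and 30 amplified), with 2244 genes called for the wildtype and 1353 for the Nr6a1-/- response. Without d4 wildtype replicate 2 and d4 Nr6a1-/- replicate 1 together it was 737 (429 positive, 308 negative, 428 lost, 39 blunted and 157 gained). Thinning left 81 lost genes, and dropping the filter gave 49 blunted ones. With a response counted as present at a log2 size of 1 in place of the test, 47 were lost, 5 blunted, 14 reversed and 27 amplified. Leaving out 1 library at a time gave 205 to 830 genes with a called difference, 82 to 504 positive and 123 to 326 negative, 68 to 489 lost, 8 to 44 blunted, 24 to 56 reversed, 60 to 155 gained and 40 to 55 amplified, with 2769 to 3651 for the wildtype and 1608 to 2201 for the Nr6a1-/- response. The highest count of called differences came without d4 Nr6a1-/- replicate 1 and the lowest without d4 Nr6a1-/- replicate 3. Apart from the smaller sets of libraries, reads and thresholds, the cause was not tested. With the replicate number as a block the count was 349, and as a block within each genotype in the 12 libraries 314. The labels name no culture or day that same-numbered libraries share. None of the 76 named genes changed the direction of its difference under any of these settings. They were chosen for a called difference and the settings share libraries, so that a change of direction was unlikely from the start. Their calls did vary. Of the 76, 0 lost the call without d4 Nr6a1-/- replicate 1, 17 with thinned counts, 19 without d4 Nr6a1-/- replicate 3 and 23 at an FDR of 0.01. At this depth a change between 2 levels that both lie under about 2 CPM could not be measured. The wildtype rise of Wnt7a, from a mean of 0.28 to 2 CPM on 3 and 14 counts, lies at this limit. Its class as reversed depends on that rise.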
